A study of Mus musculus with 12 samples.

Results

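A pair of mouse hearts, both with inflammatory genes well above their shams, was compared: the left ventricle 1 day after transverse aortic constriction (TAC) and the left ventricle 1 week after myocardial infarction (MI). The comparison used 4 of the 12 arrays of the series, chosen by their labels, namely TAC 1 day with its sham and MI 1 week with its sham. For each gene the log2 ratio of TAC 1 day over its sham and that of MI 1 week over its sham were taken. The difference is the first minus the second, so that a positive difference means a higher ratio after TAC 1 day. The pairs differ in procedure and in time together, and the separate part of each in a difference was not tested. Phrases below such as after TAC alone or the MI side refer only to TAC 1 day and MI 1 week. All animals were Balb/c mice aged 6 to 8 weeks, with no genetic change named. In TAC the transverse aorta was narrowed by tying it against a needle that was then withdrawn, and its sham had the same operation with no constriction. In MI the left coronary artery was tied near its origin, and in its sham the pericardium was opened and the artery left alone. The series text speaks of an occlusion lasting 30 min and then reperfusion, which the labels of the arrays do not mention. It also assigns the harvest at 1 day to MI, while the arrays of that time are labelled TAC, and the labels of the arrays were followed. Each group is 1 array, and the number of animals whose RNA it holds, pooled or not, is not stated. The values therefore have no replicate error, no test was made and no p-value is given.

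Pressure overload stretches living heart muscle at once, and injured or strained cells release chemokines and cytokines that draw neutrophils and then CCR2-bearing monocytes out of the blood. Infarction kills muscle, and after the early clearance of dead cells, macrophages that digest lipid and matrix and fibroblasts turned into myofibroblasts build a collagen scar. The matrix of such tissue changes in kind as well as amount, with early provisional proteins such as fibronectin and tenascin C followed by fibrillar collagens, small proteoglycans and elastic fibres.

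A ratio was called past 2-fold when it met 3 conditions: a log2 ratio of 1 or more in either direction, a signal over 25.9 (the overall median) on the brighter array of the pair, and a procedure array higher or lower than all 6 control arrays. Of 11624 genes bright enough to compare, 663 (5.7%) were higher and 744 (6.4%) were lower after TAC 1 day. After MI 1 week 699 (6.01%) were higher and 151 (1.3%) were lower. Between control arrays of the same time, under the same limits of ratio and signal, 0.576% to 1.87% of genes were higher. The ratio of 3′ to 5′ signal of the actin control probes, a measure of RNA quality, was 1.23 on the TAC 1 day array and 1.30 on its sham, and 1.33 on the MI 1 week array and 1.28 on its sham. Of the heart muscle list of sarcomere and cardiomyocyte genes all 22 were bright enough to compare and 0 passed 2-fold in either pair, while of markers of skeletal muscle 3 of 13, of fat 4 of 10 and of thymus and lung 3 of 9 were bright enough and 0 of these passed. Tnnt3 and Pvalb of the dim skeletal muscle markers, chosen after their values were seen, were past 2-fold after MI 1 week. Of 6 mesothelial and epicardial markers 2 were higher and 1 lower after TAC 1 day and 3 were higher after MI 1 week (Upk3b, Krt18 and Aldh1a2), of 3 cartilage markers 1 was lower after TAC 1 day and 2 were higher after MI 1 week, and of 6 red cell and platelet markers 2 were higher and 2 lower after TAC 1 day and 2 were higher after MI 1 week. Their part in the results was not tested. Without any scaling of the arrays the median ratio of all genes was -0.23 in the TAC pair and 0.16 in the MI pair, against -0.074 and 0.009 with scaling. The calls then split into 499 higher and 1079 lower after TAC 1 day and 959 higher and 90 lower after MI 1 week.

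Both hearts shared 248 genes higher past 2-fold (2.13% of genes), which is 37.4% of those higher after TAC 1 day and 35.5% of those higher after MI 1 week. Only 47 genes (0.404%) were lower in both, which is 6.32% of those lower after TAC 1 day and 31.1% of those lower after MI 1 week. A gene was placed on a side when its difference was at least 2-fold and it was past 2-fold in at least 1 pair. This put 311 genes (2.68%) on the TAC 1 day side and 679 genes (5.84%) on the MI 1 week side, and the split was 180 to 1167 without scaling. The TAC side held 251 genes higher after TAC 1 day, of which 218 were not past 2-fold after MI 1 week, and 59 genes lower after MI 1 week. The MI side held 288 genes higher after MI 1 week, of which 257 were not past 2-fold after TAC 1 day, and 399 genes lower after TAC 1 day. Differences of 2-fold also occurred without any procedure: between 4 control arrays, with the limits of ratio and signal alone, 7.64% of genes passed, against 14.6% for TAC 1 day and MI 1 week under those same limits. The threshold parted near-equal values, with differences of 1.0038 for Abcc3 inside and 0.9968 for 1500009L16Rik outside the TAC side, and of -1.0003 for Dusp28 inside and -0.9999 for Unc93b1 outside the MI side. Across genes the 2 ratios had a Pearson correlation of 0.41 and a Spearman correlation of 0.41, over 11624 genes that are not independent and came from 4 arrays.

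**Figure D1:**
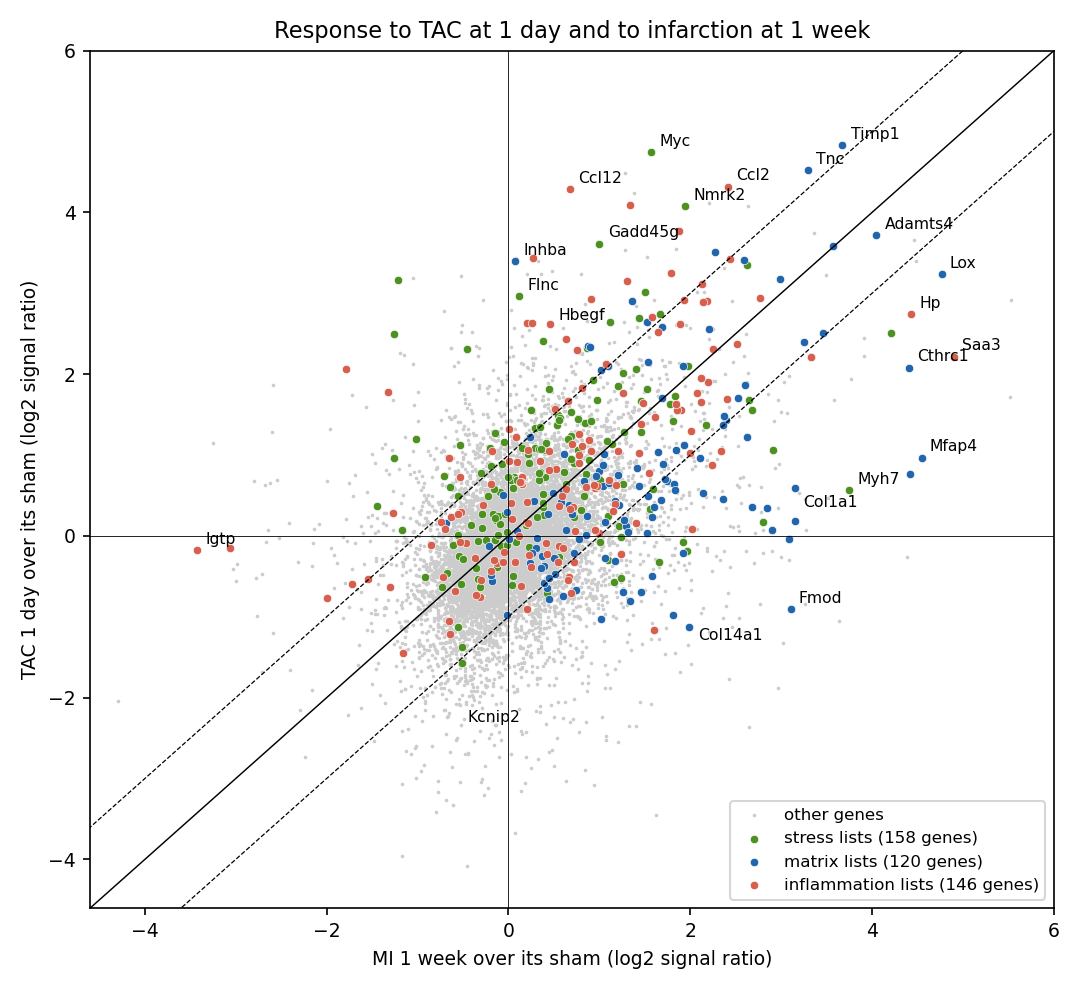
Log2 signal ratio over the own sham for TAC 1 day (vertical axis) and MI 1 week (horizontal axis), 1 point for each of 11624 genes, with members of the inflammation, stress and matrix lists in colour. The solid line marks equal ratios and the dashed lines a 2-fold difference; Timp1, Tnc and Adamts4 lie high on both axes, Myc, Ccl12 and Flnc far above the line, and Fmod, Col1a1 and Mfap4 far below it.

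Inflammation, stress and matrix genes were described by lists. The 9 inflammation lists name 204 genes, of which 19 had no probe set listed with that gene alone and 39 were too dim, which left 146. Of these, 55 were higher after TAC 1 day, 44 after MI 1 week and 32 in both, and 21 lay on the TAC side against 9 on the MI side. The 8 stress lists name 177 genes, of which 7 were not listed and 12 too dim, and of the 158 left 53 were higher after TAC 1 day, 42 after MI 1 week and 21 in both, with 21 on the TAC side and 18 on the MI side. The 6 matrix lists name 149 genes, of which 12 were not listed and 17 too dim. Of the 120 left, 32 were higher after TAC 1 day, 73 after MI 1 week and 26 in both, with 10 on the TAC side and 37 on the MI side. The median difference was 0.13 for inflammation, 0.35 for stress and -0.78 for matrix genes, against -0.096 for all genes. Inflammation was thus the kind with the most nearly equal medians, at 0.68 after TAC 1 day and 0.63 after MI 1 week, whereas matrix genes stood at 0.44 after TAC 1 day and 1.26 after MI 1 week.

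The promoters of 3 members are shown because they stand for 3 patterns: Socs3, the feedback inhibitor of IL-6 family signalling, higher in both hearts to a like degree; Saa3, an acute phase protein, higher in both but on the MI side; and Gpnmb, a glycoprotein of lipid-laden macrophages, past 2-fold after MI only. Each run covers 250 bases before to 50 bases after the annotated start, from RefSeq with build GRCm38.p6, at chr11:117969317-117969616 on the minus strand for Socs3, chr7:46715627-46715926 on the minus strand for Saa3 and chr6:49036268-49036567 on the plus strand for Gpnmb. Capitals mark matches to AP-1 (TGANTCA), C/EBP (TTNNGNAA) or STAT (TTCNNNGAA) on either strand, where C/EBP and STAT matches may overlap.
Socs3: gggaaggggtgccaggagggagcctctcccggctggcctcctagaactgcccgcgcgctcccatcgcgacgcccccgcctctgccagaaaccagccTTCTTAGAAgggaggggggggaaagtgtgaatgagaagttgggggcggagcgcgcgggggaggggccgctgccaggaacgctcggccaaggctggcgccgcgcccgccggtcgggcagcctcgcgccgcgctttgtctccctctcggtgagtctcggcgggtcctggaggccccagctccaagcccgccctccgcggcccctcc
Saa3: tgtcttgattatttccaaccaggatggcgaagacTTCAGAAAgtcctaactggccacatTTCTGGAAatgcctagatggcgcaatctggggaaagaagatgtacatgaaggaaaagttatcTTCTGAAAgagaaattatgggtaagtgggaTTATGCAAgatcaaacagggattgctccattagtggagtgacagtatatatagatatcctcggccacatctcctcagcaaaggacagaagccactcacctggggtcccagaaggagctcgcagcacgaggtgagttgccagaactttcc
Gpnmb: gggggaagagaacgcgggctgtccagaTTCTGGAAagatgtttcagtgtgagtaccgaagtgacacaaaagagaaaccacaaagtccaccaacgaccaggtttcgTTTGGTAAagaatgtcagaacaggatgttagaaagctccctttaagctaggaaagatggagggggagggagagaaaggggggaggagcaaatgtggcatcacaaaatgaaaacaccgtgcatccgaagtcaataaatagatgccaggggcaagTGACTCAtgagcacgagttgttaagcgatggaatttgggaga
The Socs3 run holds 1 STAT match, the Saa3 run 4 C/EBP matches, and the Gpnmb run 2 C/EBP matches and 1 AP-1 match. A C/EBP match stood in 43.4% of 182 promoters of genes higher in both. It stood in 31.6% of 174 promoters of TAC side genes higher past 2-fold after TAC 1 day alone. For MI side genes higher past 2-fold after MI 1 week alone the share was 36.9% of 179 promoters. A match stood in 30.9% of 9382 promoters of all genes compared and in 40.8% of all 27025 promoters. An AP-1 match stood in 11.0%, 10.3% and 8.94% of the same 3 groups, against 4.87% of the genes compared and 7.91% of all promoters. A STAT match stood in 6.59%, 10.9% and 4.47%, against 6.57% of the genes compared and 8.37% of all promoters. A match is a string of letters and not a measured binding site.

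Ccl2 and Ccl7, chemokines that call monocytes, were higher past 2-fold in both hearts, with the larger ratio after TAC 1 day. Of 17 measured chemokines, 6 were higher after TAC 1 day, 8 after MI 1 week and 4 in both. The monocyte chemoattractant Ccl2 had a signal of 1003 after TAC 1 day and 50.2 on its sham, and of 244 after MI 1 week and 46.0 on its sham. Both procedure arrays stood above all 6 controls, with log2 ratios of 4.32 after TAC and 2.41 after MI. Ccl7, another ligand of CCR2, read 328 after TAC 1 day and 23.9 on its sham, and 129.7 after MI 1 week and 35.4 on its sham. Ccl9, made by myeloid cells, was closer to even, with 1328 after TAC 1 day and 154 on its sham, and 855 after MI 1 week and 196 on its sham. For a further ligand of CCR2 in the mouse, Ccl12, the shams lay far apart. Its signal was 307 after TAC 1 day and 15.7 on its sham, and 204 after MI 1 week and 128 on its sham. The first sham is the lowest and the second the highest of the 6 controls, so that a difference of 3.62 stands beside a ratio of only 0.59 between the procedure arrays themselves. Ccl8 ran the other way, with 94.4 after TAC 1 day and 51.4 on its sham, and 887 after MI 1 week and 188 on its sham. The chemokine median was 1.78 after TAC 1 day and 0.81 after MI 1 week, and control arrays differed by up to 1.11 in that median. Against the median of all 6 controls it was 0.46 after TAC 1 day and 1.15 after MI 1 week.

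Of 19 measured receptors 11 were higher and 2 lower after TAC 1 day, 9 were higher after MI 1 week and 7 were higher in both. The lower ones were Cxcr4 and Lifr, the receptor of leukemia inhibitory factor, chosen after its values were seen, which stood at -1.06 after TAC 1 day and -0.65 after MI 1 week. The monocyte receptor Ccr2 had signals of 239 after TAC 1 day and 22.3 on its sham, and of 128 after MI 1 week and 23.7 on its sham. Both stood above every control, at 3.43 after TAC and 2.43 after MI. Osmr, the oncostatin M receptor of cardiomyocytes and fibroblasts, read 1008 after TAC 1 day and 204 on its sham, and 502 after MI 1 week and 298 on its sham, and was past 2-fold after TAC alone. Tnfrsf12a, the receptor of TWEAK, did likewise, with 2377 after TAC 1 day and 439.6 on its sham, and 808 after MI 1 week and 522 on its sham. Cxcr4, the receptor of CXCL12, lay on the MI side and went opposite ways. It had 30.1 after TAC 1 day and 67.2 on its sham, and 184 after MI 1 week and 60.7 on its sham, so that TAC 1 day lay below and MI 1 week above all controls. Of the cytokines only 7 of 22 were bright enough to compare, with 4 higher after TAC 1 day and 1 after MI 1 week. Of the 13 that were too dim, 4 were higher past 2-fold after TAC 1 day and 4 after MI 1 week. The measured cytokine higher after MI 1 week was Il1b, the alarm cytokine of myeloid cells. It read 118 after TAC 1 day and 38.2 on its sham, and 137 after MI 1 week and 38.3 on its sham.

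The acute phase and IL-6 family list was high in both, with 12 of 16 measured members higher after TAC 1 day, 8 after MI 1 week and 8 in both, and medians of 1.72 after TAC 1 day and 1.14 after MI 1 week. Socs3 read 627 after TAC 1 day and 84.4 on its sham, and 286 after MI 1 week and 64.8 on its sham. Serpina3n, a secreted protease inhibitor, read 2018 after TAC 1 day and 262 on its sham, and 806 after MI 1 week and 119 on its sham. For both genes each procedure array exceeded all controls, and the differences were 0.75 for Socs3 and 0.18 for Serpina3n. Saa3 and Hp leaned to MI. Saa3 had 191 after TAC 1 day and 41.1 on its sham, and 1128 after MI 1 week and 37.8 on its sham, a difference of -2.68. Hp, the haemoglobin scavenger haptoglobin, had 116 after TAC 1 day and 17.3 on its sham, and 384 after MI 1 week and 17.9 on its sham, a difference of -1.69. Lcn2, the iron-sequestering lipocalin, was brightest after TAC, but its own sham was bright too. It read 2311 after TAC 1 day and 500.4 on its sham, and 209.5 after MI 1 week and 20.8 on its sham, and the TAC 1 day sham was the highest control. Its difference of -1.12 therefore has the opposite sign to the ratio of 3.46 between the procedure arrays.

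Marker genes of blood-borne myeloid cells stood high in both hearts. In a bulk sample more cells of a type and more RNA per cell cannot be told apart. Of 22 neutrophil markers 3 were not listed and 10 too dim. Of the 9 measured, 6 were higher after TAC 1 day, 6 after MI 1 week and 5 in both. Their medians were 2.50 after TAC 1 day and 2.62 after MI 1 week, where controls differed by up to 1.15. The calgranulin S100a9 read 831 after TAC 1 day and 49.2 on its sham, and 462 after MI 1 week and 74.2 on its sham. Its partner S100a8 read 516 after TAC 1 day and 91.2 on its sham, and 288 after MI 1 week and 46.9 on its sham. Of the 9 markers 1, S100a9, lay on the TAC side and 3 on the MI side. Among those 3, Mmp9 had log2 ratios of 0.77 after TAC 1 day and 4.41 after MI 1 week. Clec4d, also on the MI side, had 2.92 after TAC 1 day and 5.53 after MI 1 week. The summed signal of the neutrophil list was 4085 after TAC 1 day and 737 on its sham, and 1470 after MI 1 week and 227 on its sham. Lcn2, a secreted lipocalin that other cells also make, held 2311 of that sum after TAC 1 day and 500.4 on its sham, and 209.5 after MI 1 week and 20.8 on its sham. Of 26 measured monocyte and macrophage markers 16 were higher after TAC 1 day, 22 after MI 1 week and 15 in both. Their summed signal was 9879 after TAC 1 day and 4715 on its sham, and 18496 after MI 1 week and 5382 on its sham, with controls between 4099 and 6763. Of their differences 8 were above 0 and 18 below, with a median of -0.37, and 2 lay on the TAC side and 6 on the MI side. The scavenger receptor Msr1 ran against most of this list, with a difference of 0.95. It read 208 after TAC 1 day and 20.9 on its sham, and 151 after MI 1 week and 29.3 on its sham. The list of endothelial activation and leukocyte adhesion had medians of 0.97 after TAC 1 day and 0.91 after MI 1 week, with 9 of 19 higher after TAC 1 day, 6 after MI 1 week and 6 in both. Of the 9 higher after TAC 1 day, 6 are adhesion genes of leukocytes (Selplg, Itgal, Itgam, Itgb2, Itgax and Cd44). Vcam1 and Icam1, adhesion molecules of activated endothelium, did not pass 2-fold in either heart on the probe sets used. The 3 probe sets of Vcam1 disagreed, with ratios from -0.15 to 2.03 after TAC 1 day and from 0.36 to 0.85 after MI 1 week. Selplg, Itgal and Icam1 were chosen after their values were seen. Selp, the P-selectin that slows leukocytes on the vessel wall, read 85.9 after TAC 1 day and 26.5 on its sham, and 95.9 after MI 1 week and 18.1 on its sham. Sele, E-selectin, was past 2-fold after TAC alone, at 88.8 after TAC 1 day and 5.22 on its sham, and 31.2 after MI 1 week and 12.3 on its sham.

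The genes with the highest smaller ratio of the 2 pairs included genes of matrix turnover and of myeloid cells. Timp1, the inhibitor of matrix metalloproteinases, had a signal of 3613 after TAC 1 day and 127 on its sham, and of 813 after MI 1 week and 63.7 on its sham. The controls lay between 31.8 and 127, and the log2 ratios were 4.83 after TAC and 3.67 after MI. Tnc, tenascin C of provisional matrix, read 850.1 after TAC 1 day and 36.9 on its sham, and 254 after MI 1 week and 25.9 on its sham. Adamts4, a protease that cuts versican and other proteoglycans, had 221 after TAC 1 day and 16.7 on its sham, and 108 after MI 1 week and 6.57 on its sham. Thbs1, which activates latent TGF-beta, was even, with 330.5 after TAC 1 day and 36.4 on its sham, and 340.02 after MI 1 week and 42.9 on its sham. All 4 genes lay above every control on both procedure arrays. Lgals3, the macrophage lectin galectin-3, leaned to MI, with 635 after TAC 1 day and 60.3 on its sham, and 1952 after MI 1 week and 87.3 on its sham. Fibronectin, Fn1, read 1316 after TAC 1 day and 249 on its sham, and 3874 after MI 1 week and 408 on its sham. Its smaller ratio of 2.40 was not among the 15 highest. Lox, the enzyme that cross-links collagen and elastin, had 581 after TAC 1 day and 61.4 on its sham, and 1253 after MI 1 week and 46.1 on its sham. Its log2 ratios were 3.24 after TAC and 4.76 after MI, a difference of -1.52. The others of the 15 genes of highest smaller ratio were Serpinb9b, Serpinb1a, Snx20, Clec4d, Serpina3n, Hp, S100a9, Egr2 and Adam8. Each had a ratio of at least 2.595 in both pairs. Hmox1, the heme oxygenase of oxidative stress, was even, at 246 after TAC 1 day and 57.5 on its sham, and 176 after MI 1 week and 44.8 on its sham.

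**Figure D2:**
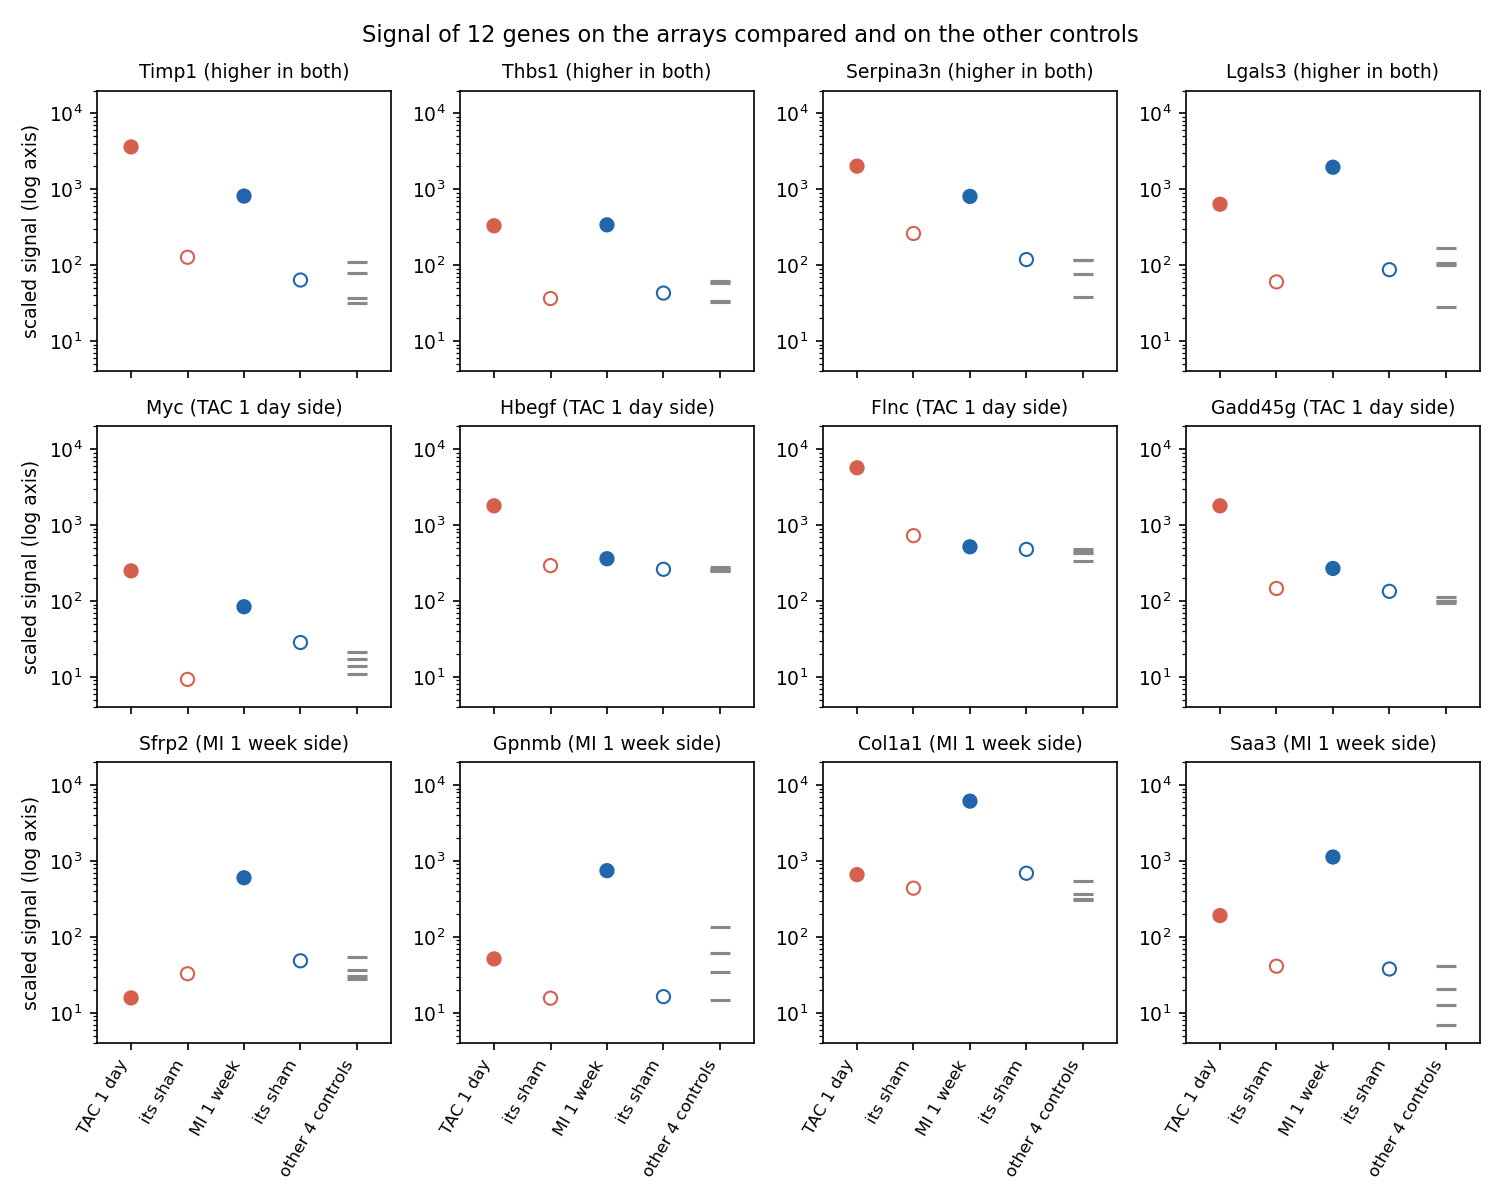
Scaled signal (log axis) of 12 genes on the TAC 1 day array, its sham, the MI 1 week array, its sham and the other 4 control arrays; filled circles are procedure arrays, open circles their shams and grey bars the other controls, 1 array each. The top row holds genes higher in both hearts, the middle row genes of the TAC 1 day side such as Flnc (5691 after TAC 1 day, 518 after MI 1 week), and the bottom row genes of the MI 1 week side such as Col1a1 (661 after TAC 1 day, 6144 after MI 1 week).

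Several genes of early signalling and mechanical stress stood higher over sham after TAC 1 day than after MI 1 week. Immediate early transcription factors were higher in both hearts, 12 of 22 after TAC 1 day, 13 after MI 1 week and 8 in both, but different members led. Myc, which drives growth and ribosome production, read 249.8 after TAC 1 day and 9.29 on its sham, and 84.1 after MI 1 week and 28.4 on its sham. The sham of TAC 1 day was the lowest control and that of MI 1 week the highest, and the difference of 3.18 compares with a ratio of 1.57 between the procedure arrays. Atf3, a factor of the integrated stress response, had 439 after TAC 1 day and 54.5 on its sham, and 199 after MI 1 week and 70.3 on its sham. Fos stood on the MI side, with 223 after TAC 1 day and 39.2 on its sham, and 1006 after MI 1 week and 54.2 on its sham. A control array reached 233 for Fos, so the TAC 1 day array lay within the range of the controls. The median difference of the list was 0.59 and became -0.27 when both hearts were set against the median of the 6 controls, the list median of the TAC 1 day sham over the later controls being -0.47.

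Mechanical stress and hypertrophy genes of cardiomyocytes had a median of 0.92 after TAC 1 day and 0.35 after MI 1 week, with 10 of 20 higher after TAC 1 day, 6 after MI 1 week and 5 in both. Flnc, the filamin that supports strained Z-discs, had signals of 5691 after TAC 1 day and 726 on its sham, and of 518 after MI 1 week and 479 on its sham. Only TAC 1 day stood above the controls, at a ratio of 2.97 against 0.11 after MI. Nmrk2, a kinase that makes NAD from nicotinamide riboside, had 2227 after TAC 1 day and 132 on its sham, and 561 after MI 1 week and 146 on its sham. Hbegf, a growth factor shed by stretched cells, read 1796 after TAC 1 day and 293 on its sham, and 361 after MI 1 week and 262 on its sham. Hbegf was past 2-fold after TAC alone, and Nmrk2 in both hearts with a difference of 2.13. The fetal myosin Myh7 went with MI, at 2003 after TAC 1 day and 1356 on its sham, and 7572 after MI 1 week and 564 on its sham. Nppa, the atrial natriuretic peptide, was past 2-fold in both, at 4860 after TAC 1 day and 2326 on its sham, and 10204 after MI 1 week and 1357 on its sham. Nppb, the B-type peptide, stayed within 2-fold, at 10327 after TAC 1 day and 5981 on its sham, and 7849 after MI 1 week and 6152 on its sham.

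Ribosome biogenesis and genes that glucocorticoids induce were higher over sham after TAC 1 day. Of 19 ribosome biogenesis genes 8 were higher after TAC 1 day and 0 after MI 1 week, the medians were 0.90 after TAC 1 day and 0.15 after MI 1 week, and all 19 differences were above 0. Between control arrays that median differed by no more than 0.11. Other probe sets of Bop1 and Noc2l, members of the list, gave differences as low as -1.40 and -0.85. Rrp12, needed to mature ribosomal subunits, read 308 after TAC 1 day and 61.9 on its sham, and 60.2 after MI 1 week and 82.5 on its sham. Gnl3, the nucleolar nucleostemin, read 719 after TAC 1 day and 244 on its sham, and 268 after MI 1 week and 224 on its sham. Both genes were past 2-fold after TAC 1 day alone. Glucocorticoid-responsive genes had medians of 1.02 after TAC 1 day and 0.45 after MI 1 week, with 10 of 20 higher after TAC 1 day, 4 after MI 1 week and 4 in both. Gadd45g, a growth arrest factor, had 1795 after TAC 1 day and 146 on its sham, and 269 after MI 1 week and 134 on its sham. Mt2, a metal-binding metallothionein, read 6903 after TAC 1 day and 1030 on its sham, and 1124 after MI 1 week and 353 on its sham. Angptl4, an inhibitor of lipoprotein lipase, had 1666 after TAC 1 day and 256 on its sham, and 175 after MI 1 week and 64.7 on its sham. For Mt2 and Angptl4 the TAC 1 day sham was the highest of the 6 controls, and the part of the 1 day operation in these genes was not tested. Pdk4, which blocks glucose oxidation, had opposite signs, with 6518 after TAC 1 day and 3338 on its sham, and 1407 after MI 1 week and 3362 on its sham, and only the MI ratio of -1.26 was past 2-fold.

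Scar macrophage genes and structural matrix genes stood higher over sham after MI 1 week than after TAC 1 day. Of 23 genes of scar and lipid-associated macrophages, 15 were higher after MI 1 week, 5 after TAC 1 day and 3 in both, and the medians were 0.22 after TAC 1 day and 1.17 after MI 1 week. Gpnmb had a signal of 51.3 after TAC 1 day and 15.6 on its sham, and of 745 after MI 1 week and 16.3 on its sham. MI 1 week stood above every control, while TAC 1 day lay within a range that reached 136. Trem2, the lipid receptor of such macrophages, read 16.9 after TAC 1 day and was at the floor of 4.54 on its sham, and read 199 after MI 1 week and 24.3 on its sham. Ctsk, the collagen-cutting cathepsin K, had 82.4 after TAC 1 day and 78.2 on its sham, and 523 after MI 1 week and 75.3 on its sham. Ms4a7, a surface protein of macrophages, read 71.7 after TAC 1 day and 38.6 on its sham, and 476 after MI 1 week and 60.5 on its sham. For all of these the TAC 1 day array lay within the range of the controls. Itgax, which encodes CD11c, was the single member on the TAC side, at 34.7 after TAC 1 day and 4.54 on its sham, and 60.4 after MI 1 week and 32.1 on its sham.

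Of 17 measured collagens 14 were higher after MI 1 week, 4 after TAC 1 day and 3 in both, with medians of 0.68 after TAC 1 day and 1.70 after MI 1 week. All 17 differences were below 0. Col1a1, the main chain of type I collagen, read 661 after TAC 1 day and 438 on its sham, and 6144 after MI 1 week and 689.8 on its sham. Col3a1, the chain of type III collagen, read 4434 after TAC 1 day and 2481 on its sham, and 9717 after MI 1 week and 3655 on its sham. These ratios depend on the probe set. On other sets the TAC 1 day ratio was larger for Col3a1 (2.18), Col1a1 (1.38), Col1a2 (1.02), Col5a2 (2.12), Col8a1 (1.64) and Col14a1 (-0.64). It was smaller for Col4a1 (0.62) and Col12a1 (0.17), and the differences of all these sets were below 0. Col14a1, a collagen that sits on fibril surfaces, went opposite ways, with 51.8 after TAC 1 day and 113 on its sham, and 984 after MI 1 week and 247 on its sham. TAC 1 day was below and MI 1 week above all 6 controls for this gene. Glycoproteins, elastic fibre and proteoglycan genes had the widest gap among the matrix lists, with medians of -0.03 after TAC 1 day and 1.53 after MI 1 week, 5 of 24 higher after TAC 1 day and 15 after MI 1 week. Fmod, the collagen-binding proteoglycan fibromodulin, had 25.5 after TAC 1 day and 47.8 on its sham, and 309 after MI 1 week and 35.9 on its sham. Mfap4, a microfibril protein, had 41.6 after TAC 1 day and 21.3 on its sham, and 1014 after MI 1 week and 43.4 on its sham. Both are near or below their controls after TAC 1 day and at 3.10 for Fmod and 4.55 for Mfap4 over their sham after MI 1 week. Ltbp2 and Fn1 were past 2-fold in both hearts, with Ltbp2, a microfibril protein related to the latent TGF-beta binding proteins, at 145 after TAC 1 day and 25.4 on its sham, and 496 after MI 1 week and 44.9 on its sham.

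Matricellular proteins divided between the hearts. Of 25 measured, 10 were higher after TAC 1 day, 20 after MI 1 week and 9 in both, with 5 on the TAC side and 9 on the MI side. On the TAC side lay Tnc and Fstl3, a follistatin-like binder of activins, at 553 after TAC 1 day and 74.0 on its sham, and 102 after MI 1 week and 39.9 on its sham. Thbs4, a thrombospondin of stressed muscle, was past 2-fold after TAC alone, at 694 after TAC 1 day and 137 on its sham, and 335 after MI 1 week and 180.3 on its sham. Both exceeded their 6 controls after TAC 1 day. On the MI side lay Cthrc1, a mark of activated fibroblasts, at 25.4 after TAC 1 day and 6.00 on its sham, and 797 after MI 1 week and 37.6 on its sham. Comp, the cartilage oligomeric matrix protein, read 47.8 after TAC 1 day and 37.7 on its sham, and 334 after MI 1 week and 46.6 on its sham. Cthrc1 and Comp lay within the controls after TAC 1 day and above them after MI 1 week. In the TGF-beta list the ligands parted as well. Inhba, the activin A chain, had 114 after TAC 1 day and 10.8 on its sham, and 65.7 after MI 1 week and 62.5 on its sham, the shams being the lowest and the highest control. Tgfb3 had 149.7 after TAC 1 day and 174 on its sham, and 572 after MI 1 week and 151 on its sham, past 2-fold after MI alone. Tgfb2 was past 2-fold in both, at 480.4 after TAC 1 day and 80.1 on its sham, and 161 after MI 1 week and 49.7 on its sham.

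Of 17 myofibroblast markers 3 were higher after TAC 1 day and 8 after MI 1 week, with medians of 0.09 after TAC 1 day and 1.20 after MI 1 week. The median of their differences was -0.15, with 7 above 0 and 10 below, within the 0.27 by which control arrays differed, and against the median of the 6 controls the MI median was 0.58 and the TAC median -0.025. Acta2, the smooth muscle actin that defines the state, read 3438 after TAC 1 day and 3397 on its sham, and 3290 after MI 1 week and 4649 on its sham. Its 2 probe sets bright enough to compare disagreed after TAC 1 day, with ratios from -1.18 to 0.017. After MI 1 week their ratios ran from -0.65 to -0.50, and their differences had opposite signs. The 14 resting fibroblast markers had a median of -0.64 after TAC 1 day, with 2 lower past 2-fold, and of 0.25 after MI 1 week, with 1 higher (6.01% of all genes were). All 14 differences of these markers were below 0 on the probe sets used. Other probe sets of Pdgfra and Gsn gave differences as high as 0.91 and 0.33. The part of these markers in the matrix results was not tested. Sfrp2, a secreted Wnt modulator and one of the 15 lowest differences, was at 15.7 after TAC 1 day and 32.7 on its sham, and at 601 after MI 1 week and 48.5 on its sham. It lay below all controls after TAC and above all of them after MI. Of 18 proliferation genes 10 were higher and 1 lower after MI 1 week, and 2 were higher after TAC 1 day. The median of their differences was -0.28, with 6 above 0 and 12 below, within the 0.58 by which control arrays differed. Mki67, a marker of cycling cells, read 18.7 after TAC 1 day and 21.2 on its sham, and 217 after MI 1 week and 55.4 on its sham.

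Atrial genes also stood high on the MI 1 week array. Of 8 measured atrial chamber markers 6 were higher after MI 1 week and 1, Nppa, after TAC 1 day. The list medians were -0.24 after TAC 1 day and 2.52 after MI 1 week. The summed signal of the list was 6317 after TAC 1 day and 3836 on its sham, and 19701 after MI 1 week and 2818 on its sham, with controls between 2818 and 5442. Nppa, whose signals are given above, held more of that sum than any other member on each of these procedure and sham arrays. Sln, the atrial regulator of the calcium pump, read 268 after TAC 1 day and 194 on its sham, and 1854 after MI 1 week and 162 on its sham. Myl7, the atrial myosin light chain, read 469 after TAC 1 day and 535 on its sham, and 3747 after MI 1 week and 504 on its sham. Whether tissue of the atria on that array has a part in the MI values of Myh7, Nppa or the matrix genes was not tested.

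**Figure D3:**
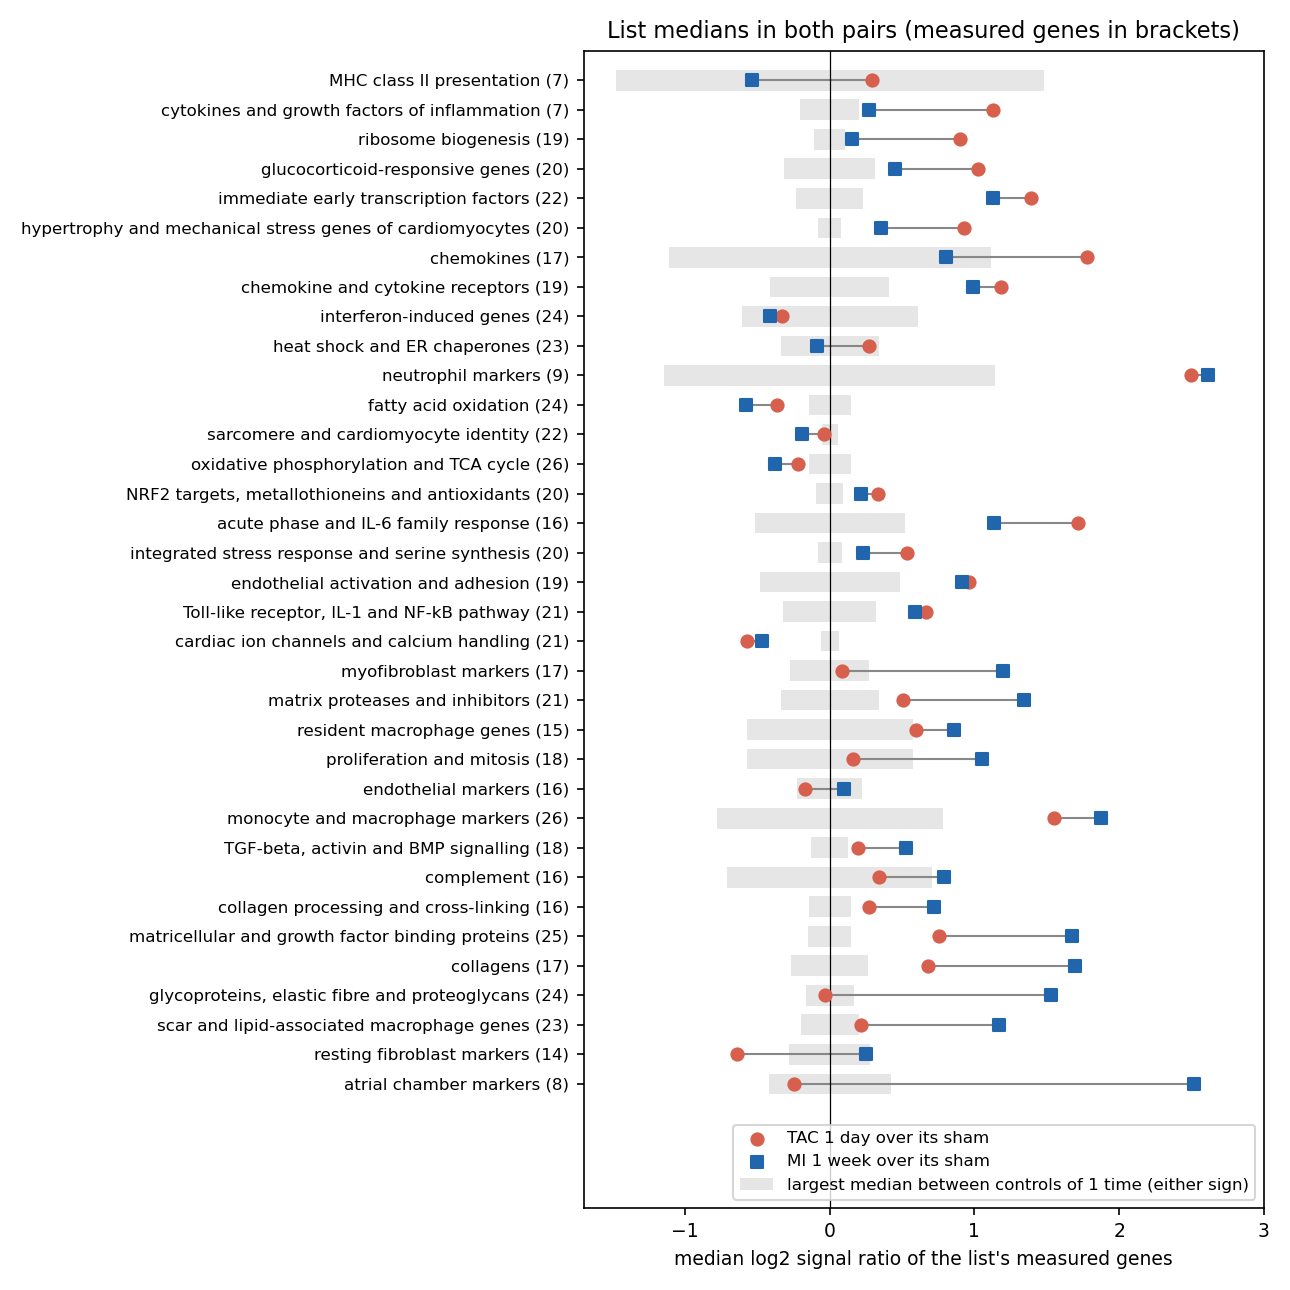
Median log2 signal ratio of the measured genes of each list in TAC 1 day over its sham (circles) and MI 1 week over its sham (squares), with lists ordered by their median difference from the TAC side at the top to the MI side at the bottom. Grey bars span the largest median of that list between control arrays of the same time, in either sign; collagens stand at 0.68 after TAC 1 day and 1.70 after MI 1 week, and ribosome biogenesis at 0.90 after TAC 1 day and 0.15 after MI 1 week.

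Interferon-induced genes were not past 2-fold higher in either heart, and of 7 measured genes of antigen presentation by MHC class II 1 was higher after TAC 1 day and 0 after MI 1 week. Of all genes 5.7% were higher after TAC 1 day and 6.01% after MI 1 week, so counts of 0 or 1 in lists this short lie close to that share. Of 24 interferon-induced genes 0 were higher past 2-fold after TAC 1 day and 0 after MI 1 week. In each pair 1 was lower, where 6.4% of all genes were lower after TAC 1 day and 1.3% after MI 1 week. The summed signal of the list was 5704 after TAC 1 day and 5001 on its sham, and 6832 after MI 1 week and 12253 on its sham. The sham of MI 1 week was the highest control. Igtp, an interferon-gamma-induced GTPase, read 149 after TAC 1 day and 169 on its sham, and 152 after MI 1 week and 1630 on its sham. Its difference of 3.25 places it on the TAC side, while the ratio between the procedure arrays was -0.02. Of 23 heat shock and chaperone genes 3 were higher and 1 lower after TAC 1 day and 2 were higher after MI 1 week, with medians of 0.27 after TAC 1 day and -0.091 after MI 1 week. The cytosolic chaperones Hsp90aa1, at 1.27 after TAC 1 day and -0.15 after MI 1 week, and Hspb1, at 1.16 after TAC 1 day and -0.05 after MI 1 week, lay on the TAC side. Hspa1b, the inducible HSP70, read 1111 after TAC 1 day and 124 on its sham, and 855 after MI 1 week and 1980 on its sham, with controls up to 2551, so that neither procedure array lay outside the controls.

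Ranked by size alone, the extremes of the difference were mixed. Of the 15 highest differences 10 had the TAC 1 day sham as the lowest control, 11 had no signal above 100 on any of the 4 arrays and 9 were lower after MI 1 week. Cxcr6, a receptor of tissue-resident lymphocytes, was bright among them, at 619 after TAC 1 day and 27.5 on its sham, and 43.6 after MI 1 week and 18.0 on its sham. In 11 of these 15 genes the TAC 1 day array exceeded the MI 1 week array by 2-fold. Of the 15 lowest differences 10 were higher after MI 1 week and 8 lower after TAC 1 day, and in all 15 the MI 1 week array exceeded the TAC 1 day array by 2-fold. Over the whole sides this held for 175 of 311 genes on the TAC side and 441 of 679 on the MI side. The shams were 2-fold apart for 69 genes of the TAC side and 82 of the MI side.

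Genes lower than sham were fewer in common. Cardiac ion channel and calcium handling genes had medians of -0.57 after TAC 1 day and -0.47 after MI 1 week, with 7 of 21 lower after TAC 1 day and 2 after MI 1 week. Kcnd2, the channel of the fast transient outward current, was lower in both, at 73.8 after TAC 1 day and 275 on its sham, and 154 after MI 1 week and 339 on its sham. Its partner subunit Kcnip2 was past 2-fold after TAC alone, at 330.2 after TAC 1 day and 1390 on its sham, and 861 after MI 1 week and 1257 on its sham. The difference of -1.53 turned to 0.18 when the mean of all its 3 probe sets was taken, 1 of which was too dim to compare; the other 2 gave -1.53 and -0.88. Fatty acid oxidation genes had medians of -0.36 after TAC 1 day and -0.58 after MI 1 week, with 3 of 24 lower in each pair. Ucp3, a mitochondrial carrier, was lower past 2-fold after MI alone, at 70.1 after TAC 1 day and 105 on its sham, and 34.3 after MI 1 week and 119 on its sham. Dbp, a clock output factor whose level follows the hour of day, was lower in both, at 304 after TAC 1 day and 1140 on its sham, and 279.6 after MI 1 week and 1247 on its sham.

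The other procedures of the series were then read for the same genes, which were chosen without the ratios of those procedures. All 12 arrays set the scaling, the floor, the probe set of each gene and the dim limit, and the 6 control arrays set the range of controls. TAC at 1 week, TAC at 1 month, MI at 1 month and angiotensin II (Ang II) infusion at 1 week had 2.18%, 1.91%, 2.89% and 0.946% of all genes higher past 2-fold. Of the 248 genes higher in both hearts, 47 (19.0%) were higher at TAC 1 week, 46 (18.5%) at TAC 1 month, 91 (36.7%) at MI 1 month and 12 (4.84%) after Ang II. Of the 257 genes past 2-fold after MI 1 week alone on the MI side, 63 (24.5%) were higher at TAC 1 week, 44 (17.1%) at TAC 1 month, 84 (32.7%) at MI 1 month and 16 (6.23%) after Ang II. Of the 218 genes past 2-fold after TAC 1 day alone on the TAC side, 14 (6.42%) were higher at TAC 1 week, 15 (6.88%) at TAC 1 month, 10 (4.59%) at MI 1 month and 7 (3.21%) after Ang II. Few of these 218 genes were thus past 2-fold at the later times of the same procedure. Their shares still exceeded those of all genes, 2.18% at TAC 1 week and 1.91% at TAC 1 month. Flnc had ratios of 2.97 at TAC 1 day, 0.31 at 1 week and 0.58 at 1 month. Col1a1, of the MI side, had ratios of 0.59, 2.22 and 2.00 at the same TAC times, and of 3.15 at MI 1 week and 2.05 at MI 1 month. Fmod had -0.91, 3.01 and 1.68 over the TAC times, and 3.10 at MI 1 week and 3.21 at MI 1 month. Structural matrix genes of the MI side were hence also high at TAC 1 week in these examples. Adamts4, high in both hearts, had 0.08 at TAC 1 week and -0.07 at MI 1 month.

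**Figure D4:**
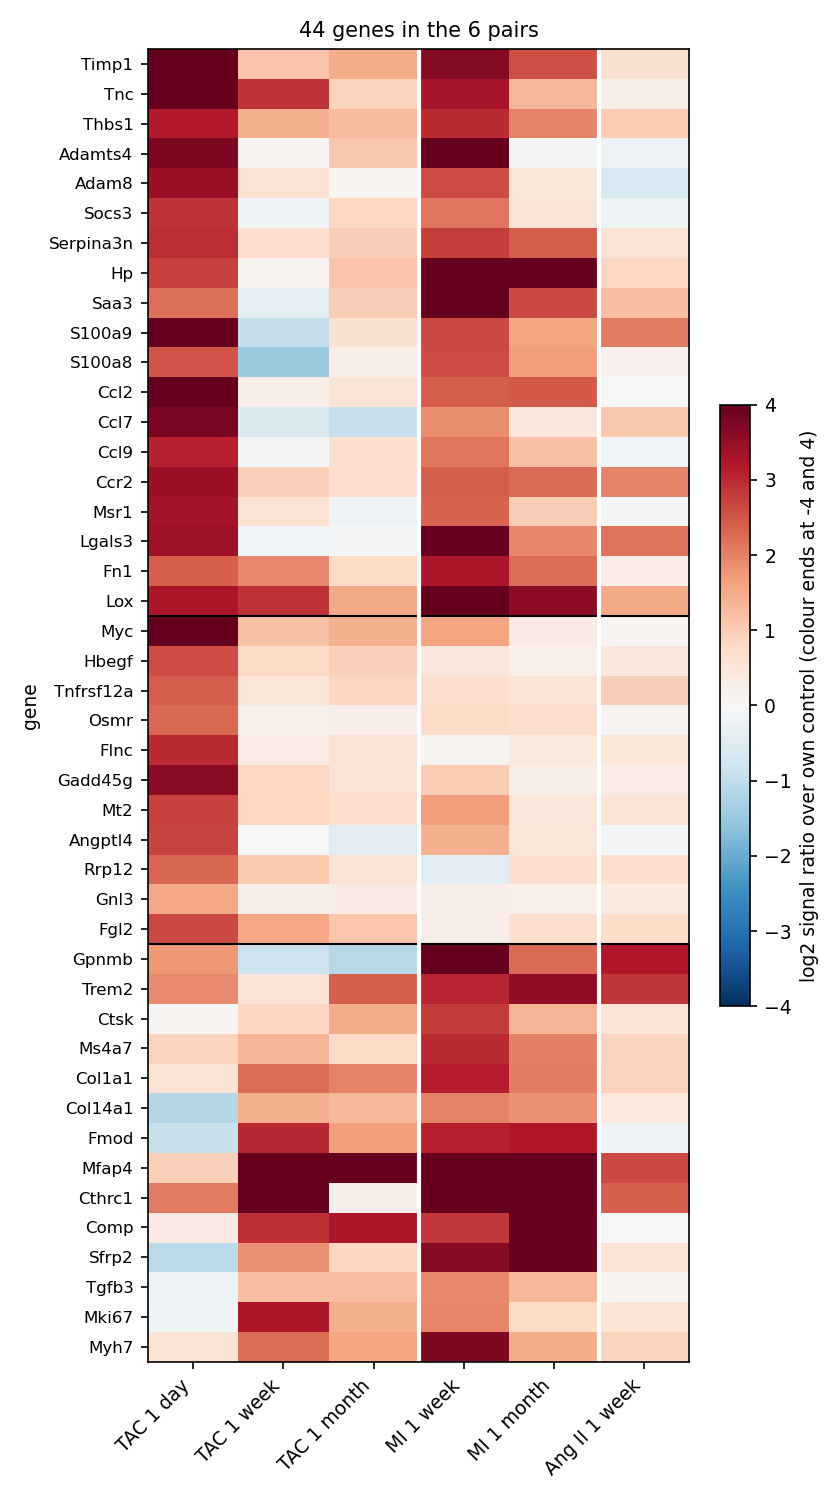
Log2 signal ratio of 44 genes (rows) over the own control in the 6 pairs (columns, 1 procedure and 1 control array each), red for higher and blue for lower; the black lines part 19 genes higher in both hearts, 11 genes of the TAC 1 day side and 14 genes of the MI 1 week side. Genes of the middle block are deepest at TAC 1 day, such as Flnc with 2.97 there and 0.31 at TAC 1 week, and many of the lower block are also red at TAC 1 week, such as Fmod with 3.01.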

How the data were processed

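Total RNA of left ventricles (5 µg per array) was measured on 12 Affymetrix arrays of 1 colour, 1 per group. The deposited values are intensity, a linear signal for each probe set on each array, made with GCOS per the submitters' processing notes. Its algorithm, version and scaling are not given in the sources used. The TAC 1 day values carry more decimals than those of the other arrays.

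Trimmed means (2% trimmed) of the arrays lay between 105 and 131, so signals were scaled to a common one with factors from 0.872 to 1.09, raised to a floor of 4.54 (the 20th percentile) and turned to log2. Of 45101 probe sets, 34958 were listed with 1 gene in the platform annotation, 932 with several and 9211 were not listed, and RefSeq's mouse gene table held 34754 of the Entrez identifiers. The brightest probe set stood for each of 18194 genes, and 11624 genes with a mean above a signal of 18.1 were compared. The floor held 0.183% of their values. A ratio with an array at the floor is a lower bound in size. Shams were paired by the sample titles. The number of arrays limits the precision, and no test was made.

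The genes named were the 15 highest and 15 lowest differences among genes on a side, the 15 genes higher in both with the highest smaller ratio, 10 lower in both, and in each of 42 lists the 4 members highest in each pair and the 4 highest and 4 lowest differences, with Nppa, Nppb, Myh7, Kcnip2 and Pdk4. The members, lists and rules were chosen with earlier results of these data known. Genes on either edge of the 2-fold limit were named after their values were seen. Alternatives were no scaling, quantile normalization, floors at the 10th and 40th percentiles, the mean of all probe sets, no filter on dim genes, the median of the 6 controls in place of the sham, and 3-fold in place of 2-fold. Calculations used Python 3.11.15, pandas 2.3.3 and numpy 2.4.6, figures matplotlib 3.10.9, and the steps were tested on simulated data. Promoters come from RefSeq with build GRCm38.p6, 1 start per gene.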

Additional observations from a re-analysis of the deposited data

Results flagged for a closer look

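In 15 genes the hearts moved opposite ways past 2-fold, each procedure array lying outside the range of the 6 controls. With 1 array per group the difference was not tested. In 13 of them TAC 1 day was lower and MI 1 week higher than its sham. Several of these encode matrix or fibroblast proteins: Sfrp2 had a difference of -4.69, Col14a1 of -3.12, the fibulin Fbln1 of -2.04, the ADAMTS-like protein Adamtsl2 of -3.60, Itgbl1 of -3.38, the olfactomedin Olfml2b of -2.85, Fndc1 of -2.81, Islr of -2.79 and the collagen-binding anthrax toxin receptor Antxr1 of -2.76. Blnk, an adaptor of B cell receptor signalling, had a difference of -5.08 with the TAC 1 day array at the floor. Cxcr4 had -2.76, Med18 had -3.75 and Specc1 had -2.65. Itgbl1 read 59.5 after TAC 1 day and 120.3 on its sham, and 676 after MI 1 week and 131 on its sham. In the other 2 genes TAC 1 day was higher and MI 1 week lower: the retinol-oxidizing alcohol dehydrogenase Adh1 had a difference of 2.48 and Zfp949 of 3.29. The probe sets of Zfp949 disagreed in sign.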

How the results depend on the processing

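With 1 array per group no error can be given, the pairing of shams rests on the sample titles, and the choice of sham weighs on every difference. No paired analysis was possible because each group holds 1 array. Without scaling, the TAC 1 day side held 180 genes and the MI 1 week side 1167. With 3-fold in place of 2-fold, 488 genes passed in TAC 1 day, 318 in MI 1 week, 97 were higher and 5 lower in both, and the sides held 100 genes for TAC and 200 for MI. The other counts stayed within 1.5 times under the remaining alternatives, but the genes differed: with the median of the 6 controls 152 of the 311 genes of the TAC side, 400 of the 679 of the MI side and 198 of the 248 higher in both were the same. Of the list medians under all alternatives 686 moved by less than the spread between controls, 102 by more and 10 that had exceeded it changed sign; of the differences of named genes these were 335, 67 and 2. The median difference changed sign without scaling for NRF2 targets (-0.18), fatty acid oxidation (-0.039), oxidative phosphorylation (-0.16) and sarcomere genes (-0.13). With quantile normalization it did so for oxidative phosphorylation (-0.025) and sarcomere genes (-0.035), and with the median of the 6 controls for immediate early genes (-0.27) and endothelial markers (0.058). For adipocyte markers without the dim filter the MI median was 0.31 and the difference -0.40. Igtp changed to -0.024 with the median of the controls and Kcnip2 to 0.18 with the mean of all probe sets. The cause of these changes was not tested. Of 157 named genes with several probe sets, 57 had a 2-fold difference and 12 of those had probe sets of opposite sign, Eln, Myl4 and Loxl1 among them.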

Other observations

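Some genes too dim on most arrays to be compared were bright after a procedure: Il6, Arg1 and Slfn4 in both hearts and Col11a1 after MI 1 week alone. They were chosen after their values were seen. Il6, the main inducer of the acute phase, read 103 after TAC 1 day and 161 after MI 1 week, with both shams at the floor of 4.54. Arg1, the arginase of wound macrophages, read 348 after TAC 1 day and was at the floor on its sham, and read 349 after MI 1 week and 16.4 on its sham. Slfn4, a schlafen of myeloid cells, read 109.97 after TAC 1 day and 89.6 after MI 1 week, with both shams at the floor. Col11a1, a fibril-nucleating collagen, was at the floor after TAC 1 day and on its sham, and read 129.7 after MI 1 week and 8.01 on its sham.

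Arntl, the core clock factor that opposes Dbp in phase, had signals of 87.2 after TAC 1 day and 108 on its sham, and of 153 after MI 1 week and 18.1 on its sham. It was also chosen after its values were seen, and the hour of harvest is not given in the labels. Medians of the vessel and muscle lists moved by less than 2-fold. Of 22 sarcomere genes 0 passed 2-fold in either heart, with medians of -0.04 after TAC 1 day and -0.19 after MI 1 week. Control arrays differed by up to 0.05 in that median. Oxidative phosphorylation genes had medians of -0.22 after TAC 1 day and -0.38 after MI 1 week, with 0 of 26 past 2-fold. Of their ratios 0 were above 0 in either pair, and control arrays differed by up to 0.15 in the median. Endothelial markers had medians of -0.17 after TAC 1 day and 0.10 after MI 1 week.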
